A study of Mus musculus with 14 samples.

Results

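Fetal mouse ovaries in which Nr2f2 had been targeted were compared with control ovaries at embryonic day (E) 16.5, over every Affymetrix probe set annotated to 1 gene. The groups were taken from the array titles, 4 knockout and 4 control arrays, which are 8 of the 14 arrays of the series. The other 6 were E14.5 ovaries, 3 per genotype, used here for the shared estimate of spread and for values set beside those of E16.5. In the knockouts both alleles of Nr2f2 (COUP-TFII) were floxed, and the WT1-CreERT2 recombinase was switched on with tamoxifen. Dams of control and knockout embryos alike received the drug, 2 mg per 10 g of body weight on each of E11.5 and E12.5, so that the ovaries were frozen 4 days after the last dose. The sources used here do not give the genotype of the controls or say if they carried Cre. Strain was the same mixture of C57BL/6, Swiss Webster and B6129SF1/J in all groups, and the labels call the arrays of a group biological replicates. By this design deletion was directed to cells that expressed Wt1 while the drug acted, and would pass to their descendants. RNA came from whole ovaries. In such bulk RNA, fewer cells of a type and less RNA per cell cannot be told apart.

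Nr2f2 encodes COUP-TFII, an orphan nuclear receptor that binds DNA at AGGTCA repeats and is abundant in mesenchymal cells. In the fetal gonad it marks interstitial (stromal) progenitors, which lie between the cords of supporting cells and germ cells. Those supporting cells, the pre-granulosa cells, are marked by Foxl2. The interstitial progenitors give rise to stroma and to steroid-making theca cells after birth.

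Signals are linear MAS5 probe set intensities, scaled so that the trimmed mean of each array was 500. Differences are knockout minus control on the scale log2(signal + 16), with standard errors (SE), and understate the change of dim probe sets. A probe set passed at an adjusted p under 0.05 in limma, a linear model with a shared estimate of spread, after Benjamini-Hochberg adjustment over all 34945 probe sets. The number of arrays limits the precision. Probe sets with a mean signal under 70.6, the 40th percentile, are called dim. Female fetal identity was checked on defining markers: over the 8 arrays the brightest probe set of Foxl2 read 1243 to 2672 and that of the meiotic gene Sycp3 5479 to 7615, whereas the Sertoli cell genes Amh and Dhh read 2.29 to 12.0 and 20.9 to 73.9. Sox9, which the Sertoli lineage shares with other cell types, read 235 to 368.

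Knockout replicates 1 and 4 stood apart from the other E16.5 arrays. Their bioB hybridization controls read 10028 and 16405, against 3806 to 5113 on the other 6. The Gapdh 3' minus 5' difference, a measure of RNA integrity and labelling, was 1.67 to 1.83 on the log2 scale in controls. In knockouts 1 to 4 it was 0.94, 1.63, 1.58 and 1.32, without overlap between the groups. Correlations of log2 values across probe sets were 0.971 to 0.983 within the groups and 0.968 to 0.982 between them, so genotype did not separate the arrays as a whole.

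The targeted gene was lower in all knockout arrays on 5 of its 6 probe sets, and 3 of the 6 passed. The probe set with the largest fall read 1984, 1886, 1797 and 2227 in controls 1 to 4 and 302, 270.0, 409 and 303 in knockouts 1 to 4 (log2 change -2.57 ± 0.46, limma adjusted p = 0.0139). A probe set that changed less read 1064, 896, 941 and 994 in controls and 226, 334, 523 and 232 in knockouts (-1.60 ± 0.21, limma adjusted p = 0.00327). On the brightest probe set controls read 3819, 4950.3, 4309 and 4250.4 and knockouts 2462, 2261, 3359 and 2053, and the change did not pass (-0.79 ± 0.22, limma adjusted p = 0.107). The groups were separate on all of these, and knockout replicate 3 held the highest knockout value on each. A dimmer probe set fell from between 79.9 and 110.4 in controls to between 6.19 and 23.9 in knockouts (-1.79 ± 0.39, limma adjusted p = 0.0422), although it passed in 0 of the 8 fits that left out 1 of the E16.5 arrays. The remaining pair changed by -0.96 ± 0.23 and 0.26 ± 0.39 (limma adjusted p = 0.0681 and 0.838). The sources used here do not say which probe sets lie in the deleted part, and a probe set outside it would not report the deletion. The residual signal on the brightest probe set was therefore not interpreted.

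**Figure D1:**
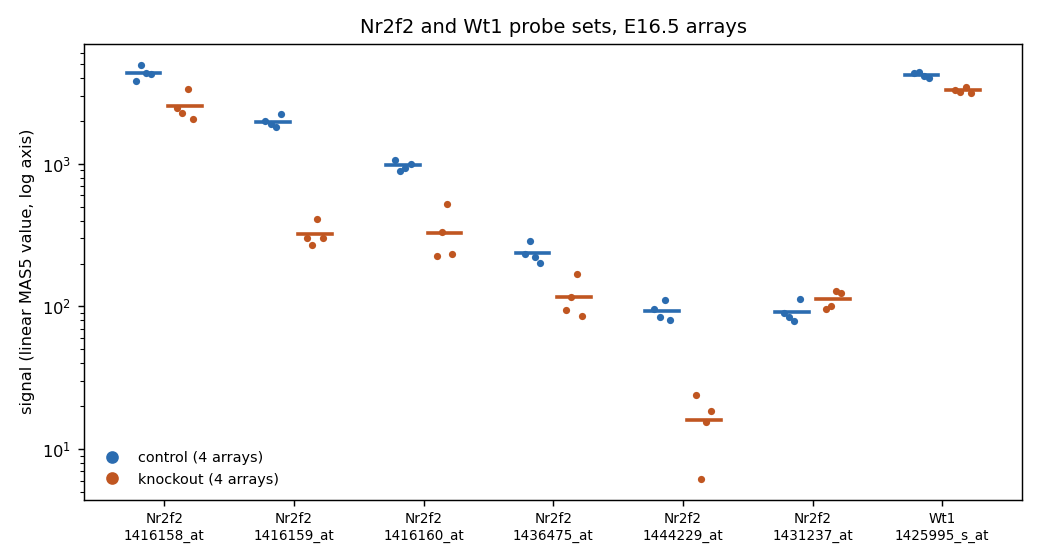
Signal of each Nr2f2 probe set and of Wt1 on a log axis, 1 point per array and a bar at the mean, in the 4 control and 4 knockout ovaries at E16.5. On 5 of the 6 Nr2f2 probe sets every knockout point lies below every control point, and Wt1 lies slightly lower in knockouts.

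The other members of the COUP-TF family did not pass: the values were 0.36 ± 0.15 for Nr2f1 (limma adjusted p = 0.315) and -0.19 ± 0.11 for Nr2f6. Wt1, whose regulatory region drives the recombinase, read 4332, 4431, 4131 and 3986 in controls and 3284, 3167, 3465 and 3156 in knockouts. Its groups were separate, but the log2 change of -0.37 ± 0.13 did not pass (limma adjusted p = 0.214). Among the 40 measured genes nearest to Nr2f2 on its chromosome, 20 on either side, the smallest adjusted p was that of Aldh1a3, which did not pass (0.72 ± 0.17, limma adjusted p = 0.0632). Of the 40 nearest to Wt1, 1 passed, Them7, which rose by 1.34 ± 0.22 (limma adjusted p = 0.00855).

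Of 48 gene lists, the p53 target list held 5 higher genes of 27 measured and the interstitial matrix list 4 of 37. The interstitial progenitor and ion channel lists held 4 lower genes each, of 17 and 27. These were the largest counts in either direction, but the lists differ in size and were chosen with earlier results of these data known. In all, 200 of 34945 probe sets passed (0.572%), 124 higher (0.355%) and 76 lower (0.217%). They covered 114 higher genes (0.627% of 18193) and 62 lower genes (0.341%), and 0 genes passed in both directions. The knockout arrays lay entirely above or below the controls on 199 of the 200, against 8.17% of all probe sets (4.37% higher and 3.8% lower). The 200 were selected on these same arrays, so this separation is not separate support for them. The change was at least 1 on the log2 scale for 75 higher and 37 lower probe sets, and the median absolute change of the calls was 1.07. Of the higher calls, 29 had a dim control mean, and of the lower calls 13 had a dim knockout mean, where the pseudocount weighs on the size of the fold.

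**Figure D2:**
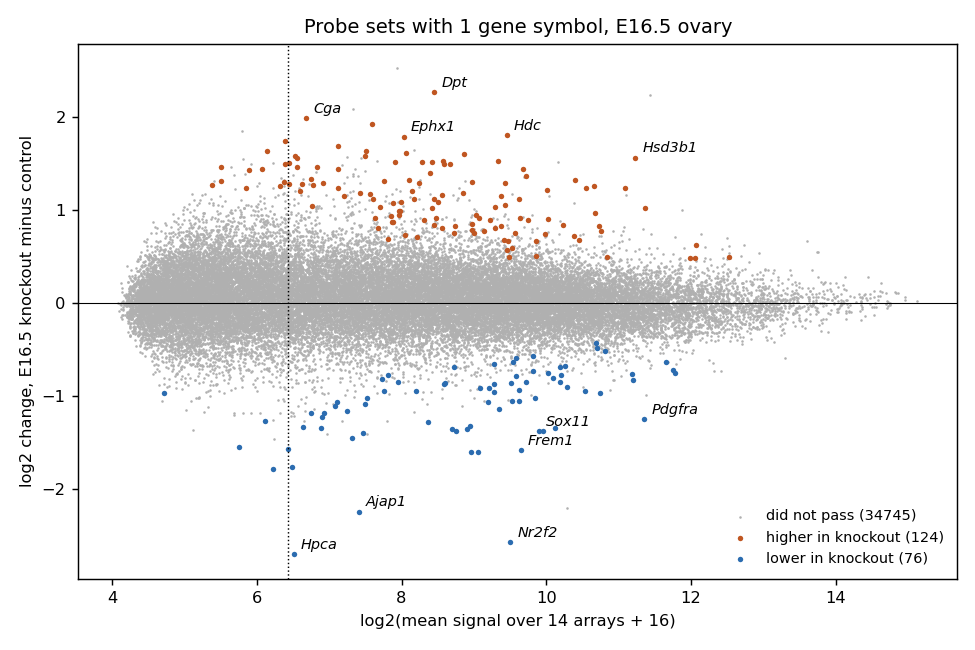
Log2 change between knockout and control at E16.5 (vertical axis) against log2(mean signal over the 14 arrays + 16) (horizontal axis), 1 point per probe set, with passing probe sets coloured and the dotted line at the 40th percentile of signal. The 124 higher and 76 lower calls spread over the range of signal, and most lie to the right of the line.

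How many probe sets passed moved strongly with single arrays. Leaving out control replicate 1, 2, 3 or 4 gave 81, 95, 60 or 97 calls. Without knockout replicate 1, 2 or 4 there were 56, 519 or 96. Without knockout replicates 1 and 4 together 13 probe sets passed, 10 of them among the 200, and with the Gapdh difference as a covariate 7 passed, all among the 200. In all these fits the 200 kept their sign. For the 199 calls whose groups did not overlap, leaving out arrays could not turn the sign. For them only the fit with the covariate could have done so. Their median absolute change was 0.94 without the 2 arrays and 0.99 with the covariate, and 15 and 14 of them shrank by more than 1.5 times. Because the Gapdh difference did not overlap between the groups, its part in these changes cannot be told apart from that of genotype in the full set of arrays. A core of 46 probe sets in 40 genes, 29 higher and 17 lower, passed whichever of the E16.5 arrays was left out. Frem1, Ephx1, Wnt5a and Cdkn1a also passed, on 1 probe set or more, both with the covariate and without the 2 arrays.

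The largest fall was that of Hpca, which encodes the neuronal calcium sensor hippocalcin. Hpca read 121, 176, 354 and 139 in controls and 11.1, 21.5, 30.5 and 1.79 in knockouts (log2 change -2.70 ± 0.35, limma adjusted p = 0.00281). All knockout values were dim, and the groups were far apart. The smallest p of the comparison was that of Frem1, an extracellular matrix protein of basement membranes. It read 1296, 1344, 1245 and 1208 in controls and 442, 370.0, 452 and 399.7 in knockouts (-1.58 ± 0.15, limma adjusted p = 0.000121), with little spread in either group. Without knockout replicates 1 and 4 the change of Frem1 was -1.60 (limma adjusted p = 0.00774). Frem1 was the 1 called gene of the 23 measured in the basement membrane list, whose laminins, nidogens and Frem2 did not pass.

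**Figure D3:**
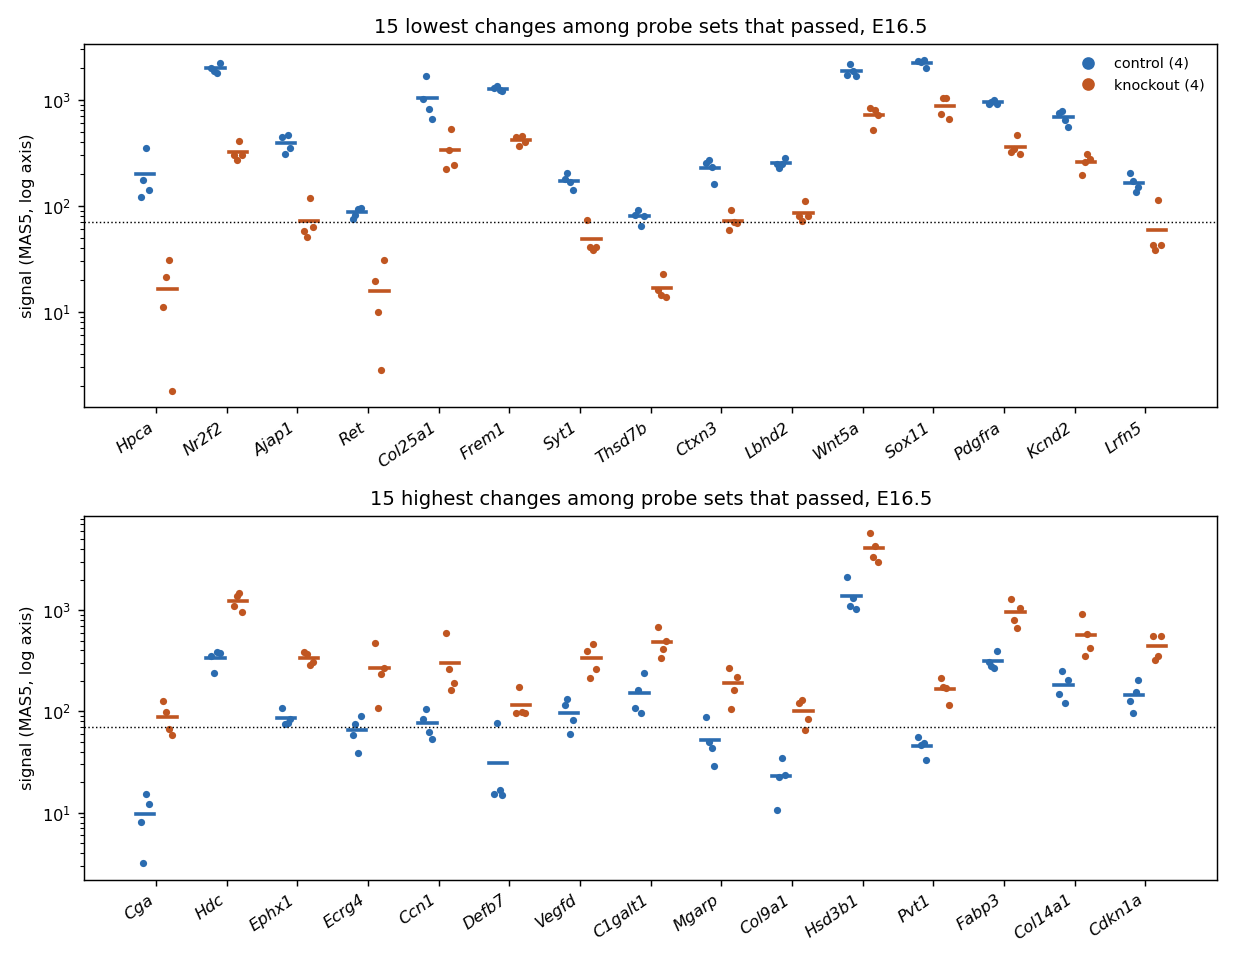
Signal on a log axis in each control and knockout ovary at E16.5 for the 15 genes with the lowest and the 15 with the highest log2 changes by the naming rule, which leaves out clone names such as 2210407C18Rik, with a bar at each mean and a dotted line at 70.6. For every gene shown the 4 knockout points lie all above or all below the 4 control points.

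Promoter sequence is shown for 3 leading genes because COUP-TFII binds the core AGGTCA and its spaced repeats. They are Hpca, the largest fall, Frem1, the smallest p, and Cga, the highest change among calls without overlap. Sequence was extracted only for called genes whose upstream window held the core, so its presence in all 3 was fixed by that choice. Each run is the 250 bases upstream of the RefSeq transcription start in GRCm38.p6, written 5' to 3' on the gene's strand, with the core or its complement TGACCT in capitals. Hpca lies at chr4:129121748-129121997 (minus strand), Frem1 at chr4:83021103-83021352 (minus strand) and Cga at chr4:34893529-34893778 (plus strand).
Hpca: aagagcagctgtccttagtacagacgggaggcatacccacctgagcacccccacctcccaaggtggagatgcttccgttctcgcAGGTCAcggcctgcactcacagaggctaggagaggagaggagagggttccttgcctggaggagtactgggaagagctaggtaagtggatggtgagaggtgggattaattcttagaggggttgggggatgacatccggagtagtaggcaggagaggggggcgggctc
Frem1: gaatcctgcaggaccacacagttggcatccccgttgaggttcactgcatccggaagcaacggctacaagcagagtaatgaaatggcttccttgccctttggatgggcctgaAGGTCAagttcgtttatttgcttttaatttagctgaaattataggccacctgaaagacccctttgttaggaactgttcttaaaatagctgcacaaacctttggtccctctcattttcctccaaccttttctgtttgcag
Cga: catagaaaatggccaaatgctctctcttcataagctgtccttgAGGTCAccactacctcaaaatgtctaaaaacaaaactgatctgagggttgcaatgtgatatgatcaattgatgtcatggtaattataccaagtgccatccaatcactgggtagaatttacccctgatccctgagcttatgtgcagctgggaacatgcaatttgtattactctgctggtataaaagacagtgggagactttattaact
The core was searched on both strands from 250 bases before to 50 after the start. It was present for 9 of 82 higher genes with a sequence (11.0%), 6 of 47 lower genes (12.8%) and 2383 of 14452 measured genes (16.5%). The direct repeat, the core followed by any base and the core again, on either strand, was present for 0 higher genes, 0 lower genes and 7 of all 14452 (0.0484%). These matches describe the letters only, and their share was lower among called genes than over all measured genes.

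Genes of interstitial progenitors fell in part. Of 17 measured genes in that list, 4 passed as lower, Pdgfra, Wnt5a, Tcf21 and Gli2, and 1 as higher, Meis2. Pdgfra, the receptor for platelet-derived growth factor that marks stromal cells, fell on all 3 of its probe sets. On the brightest it read 3151, 2735, 3409 and 3019 in controls and 1194, 1193, 1669 and 1127 in knockouts (log2 change -1.25 ± 0.19, limma adjusted p = 0.00553). Its knockout values were similar except for the higher replicate 3, and the groups did not overlap. Wnt5a, a secreted ligand of the noncanonical WNT pathway, was lower on 4 of 4 probe sets, 3 of which passed. The strongest change of Wnt5a was from 1716, 2181, 1883 and 1672 in controls to 828, 513, 794 and 721 in knockouts (-1.38 ± 0.20, limma adjusted p = 0.00525), and it was -1.51 without knockout replicates 1 and 4 (limma adjusted p = 0.0496). Knockout replicate 2 had the lowest value and all 4 lay well under the controls.

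Tcf21, a mesenchymal transcription factor, read 150.1, 129, 136 and 117 in controls and 59.0, 41.5, 76.2 and 48.5 in knockouts (log2 change -1.06 ± 0.23, limma adjusted p = 0.0404). Its brighter probe set had -0.83 ± 0.23 with separate groups and did not pass. Gli2, a transcription factor of the hedgehog pathway, read 1482, 1145, 1353 and 1383 in controls and 543, 983, 981 and 553 in knockouts (-0.85 ± 0.18, limma adjusted p = 0.0336). Its knockouts split, with replicates 1 and 4 lowest, and without those arrays the change was -0.44 (limma adjusted p = 0.412). Of the 13 measured hedgehog genes Gli2 alone passed; the pathway targets Gli1 and Ptch1 and the receptor Smo had log2 changes of -0.17 ± 0.23, -0.17 ± 0.15 and -0.38 ± 0.15. Meis2, a homeobox cofactor, rose from between 455 and 582 in controls to between 703 and 1217 in knockouts (0.75 ± 0.16, limma adjusted p = 0.0436). The other 12 progenitor genes, such as Pdgfrb (-0.07 ± 0.15) and Nr5a1 (0.43 ± 0.14), did not pass, and the median change over the 17 genes was 0.07, against 0.06 over all genes. That median turned to -0.17 with the Gapdh covariate and to -0.01 without knockout replicates 1 and 4, so the list as a whole had no settled direction. Tcf21, Gli2 and Meis2 passed in 1, 2 and 2 of the 8 fits that left out 1 of the E16.5 arrays. The summed signal of the list was 26839 to 29064 in controls and 22269 to 27594 in knockouts.

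Sox11, a transcription factor of the SoxC group found in progenitor cells, was the gene with the most passing probe sets. On 5 of 6 it passed as lower, and on all 6 the groups were separate. The probe set with the smallest p read 2338, 2289.8, 2348 and 1992 in controls and 732, 1049, 1036 and 663 in knockouts (log2 change -1.38 ± 0.16, limma adjusted p = 0.000957). The other 5 had changes between -0.66 and -1.06. Knockout replicates 1 and 4 were the lowest on that probe set, and without them it still passed at -1.09 (limma adjusted p = 0.0267).

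Ion channel and synaptic genes passed in both directions. Of the 27 measured genes in the list, 4 passed as lower, Kcnd2, Syt1, Amph and Trpc6, and 0 as higher. Channel and synaptic genes outside the list passed as higher, among them Kcnh1 (1.12 ± 0.21), Kcnj12 (1.44 ± 0.26), Kcne3 (1.27 ± 0.26), Cbln1 (1.28 ± 0.21), Shank1 (1.24 ± 0.26) and Slc8a3 (1.20 ± 0.26); they were picked out after their values were seen, and Kcnj12, Kcne3 and Shank1 were dim. Kcnd2, a voltage-gated potassium channel, read 754, 784, 651 and 549.7 in controls and 197, 260.0, 305 and 275 in knockouts (log2 change -1.35 ± 0.19, limma adjusted p = 0.00509). Another Kcnd2 probe set also passed (-1.05 ± 0.22), another had -1.02 ± 0.29 with separate groups, and the remaining one was at background. Syt1, the calcium sensor of synaptic vesicles, read 179, 203, 168 and 139 in controls and 73.4, 40.4, 38.4 and 40.7 in knockouts (-1.57 ± 0.30, limma adjusted p = 0.022). Knockout replicate 1 lay above the other knockouts but under every control. Amph, which curves membranes at endocytosis, fell by 1.28 ± 0.26 on the log2 scale, and the cation channel Trpc6 by 1.22 ± 0.24. Of these 4 genes Kcnd2 alone passed whichever E16.5 array was left out; Syt1, Trpc6 and Amph passed in 3, 2 and 1 of the 8 such fits. The median change over the 27 genes was -0.01, and 11 were dim.

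Surface and adhesion proteins also appeared among the largest falls. Ajap1, a membrane protein of adherens junctions, read 448, 306, 469 and 349 in controls and 57.8, 51.0, 119 and 62.4 in knockouts (log2 change -2.24 ± 0.34, limma adjusted p = 0.00608), and a further probe set gave -1.33 ± 0.21. Both Ajap1 probe sets passed whichever E16.5 array was left out, and the remaining one was at background. Col25a1, a transmembrane collagen, read 1027, 1688, 811 and 661 in controls and 224, 334, 529.7 and 243 in knockouts (-1.60 ± 0.26, limma adjusted p = 0.00916); controls varied widely and still lay above all knockouts. Ret, the receptor of the GDNF family of ligands, read 74.9, 81.8, 93.0 and 95.7 in controls and 19.4, 10.0, 2.81 and 31.0 in knockouts (-1.76 ± 0.33, limma adjusted p = 0.0185). Ret was close to the dim range in controls and far under it in knockouts. The synaptic adhesion gene Lrfn5 fell by 1.35 ± 0.26, with knockout replicate 3 at 113 against 38.5 to 43.0 in the other knockouts. Thsd7b, Ctxn3 and Lbhd2 complete the 15 lowest, with changes of -1.55 ± 0.27, -1.46 ± 0.31 and -1.40 ± 0.23. Lbhd2 passed whichever E16.5 array was left out, while Ret, Lrfn5 and Ctxn3 passed in 3, 2 and 1 of those 8 fits.

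Growth factors and their partners changed in small numbers per pathway. Fgf2, a fibroblast growth factor, fell from 815 ± 52.7 (SD, n = 4) to 441 ± 66.6 (SD, n = 4) (log2 change -0.87 ± 0.16, limma adjusted p = 0.0176). It was the 1 passing gene of 21 in the FGF list. In the BMP, TGF-beta and activin list of 34 genes, the ligand Bmp5 rose (1.40 ± 0.22), and the ligand Tgfb2 (-0.68 ± 0.15), the activin-binding Fst (-0.76 ± 0.13) and the BMP-responsive Id2 (-0.95 ± 0.17) fell. Bmp5 read 204, 236, 148 and 102 in controls and 506, 395, 564 and 399 in knockouts (limma adjusted p = 0.00703), without overlap, and passed whichever E16.5 array was left out. Id2 read 1843, 1971, 2035 and 1985 in controls and 839, 1276, 1282 and 742 in knockouts (limma adjusted p = 0.0122). Knockouts 1 and 4 were again the lowest for Id2, and without them its change was -0.61 (limma adjusted p = 0.213). Tgfb2 shared that pattern, with 983, 1425, 1532 and 1087 in knockouts 1 to 4 against 1929 to 2108 in controls, and had -0.43 without the 2 arrays. Fst, Id2, Fgf2 and Tgfb2 passed in 7, 6, 3 and 2 of the 8 fits that left out 1 of the E16.5 arrays. In the WNT list of 36 genes, Wnt5a, the receptor Fzd3 (-0.66 ± 0.14) and the pathway inhibitor Apcdd1 (-0.94 ± 0.20) passed as lower. Sfrp1 passed as higher on 1 probe set only, as described with the agreement between probe sets. Fzd3 and Apcdd1 were each lower on 5 of 6 probe sets and passed on 1. Those 2 calls held in 1 and 2 of the 8 fits, and another Apcdd1 probe set had 0.33.

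Vessel genes changed in both directions. Vegfd, a ligand for growth of lymphatic vessels, was higher without overlap on 3 of 3 probe sets, 2 of which passed. The larger change was from 115, 133, 60.5 and 81.4 in controls to 398, 215, 464 and 262 in knockouts (log2 change 1.61 ± 0.33, limma adjusted p = 0.0327). Angpt1, the ligand of the endothelial receptor Tek, fell on both of its probe sets, by 1.27 ± 0.25 and 1.11 ± 0.23. On the former it read 137, 101, 120.2 and 139 in controls and 41.7, 32.8, 73.6 and 28.8 in knockouts (limma adjusted p = 0.0224), again with replicate 3 the highest knockout. Tek itself fell from between 540.4 and 646 in controls to between 306 and 396 in knockouts (-0.68 ± 0.15, limma adjusted p = 0.0436). The endothelial membrane protein Plvap rose from between 194 and 297 in controls to between 442 and 756 in knockouts (1.18 ± 0.21, limma adjusted p = 0.0157). Vegfd, Angpt1, Tek and Plvap passed in 2, 3, 1 and 4 of the 8 fits that left out 1 of the E16.5 arrays. Among those fits the other Vegfd call held only without knockout replicate 2, and the other Angpt1 call only without knockout replicate 3. The other 20 of 22 measured endothelial genes did not pass, and the summed signal of the list was 12185 to 14252 in controls and 12500 to 15789 in knockouts.

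Targets of p53 and of the DNA damage response formed the list with the most higher calls. Of 27 measured genes 5 passed as higher, Ccng1, Cdkn1a, Dcxr, Eda2r and Zmat3, and 0 as lower. Cdkn1a, the cell cycle inhibitor p21, rose on both of its probe sets. The brighter one read 464, 452, 457 and 391 in controls and 1008, 1135, 1045 and 838 in knockouts (log2 change 1.16 ± 0.16, limma adjusted p = 0.00327), and the dimmer one read 127, 96.2, 157 and 205 in controls and 561, 318, 354 and 553 in knockouts (1.51 ± 0.23, limma adjusted p = 0.00629). Every knockout ovary lay well above every control on both. Ccng1, a cyclin induced by p53, read 911, 987, 936 and 951 in controls and 2576, 1982, 2459 and 2060.4 in knockouts (1.24 ± 0.17, limma adjusted p = 0.00346). On a further Ccng1 probe set that passed, the change was 1.05 ± 0.23, while on the brightest, whose groups overlapped, it was 0.46 ± 0.23. The Ccng1 call at 1.05 was lost whichever E16.5 array was left out.

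Zmat3, an RNA-binding p53 target, rose from between 269 and 352 in controls to between 496 and 654 in knockouts (log2 change 0.85 ± 0.15, limma adjusted p = 0.0107), and Dcxr, a carbonyl reductase placed in this list, from between 114 and 165 in controls to between 283 and 410.0 in knockouts (1.12 ± 0.17, limma adjusted p = 0.00608). Eda2r, a receptor of the tumour necrosis factor family, read 167, 182, 182 and 191 in controls and 451, 510.2, 616 and 255 in knockouts (1.21 ± 0.24, limma adjusted p = 0.0294). Knockout replicate 4 was the lowest, the call held in 2 of the 8 fits that left out 1 array, and without replicates 1 and 4 the change was 1.56 (limma adjusted p = 0.0375). Of the 24 genes in the list that were not dim, 20 had a positive change, against 54.0% of all such probe sets. Their median was 0.30, against 0.06 over all genes. Without the 2 arrays these values were 20 genes and 0.27. The other 22 measured genes did not pass, among them Mdm2 (0.24 ± 0.13), the proapoptotic Bbc3 (0.59 ± 0.28) and Pmaip1 (0.09 ± 0.30), and Gadd45a (-0.37 ± 0.17). The cell cycle list held 1 call in 33 genes, Ccnd2, which rose by 0.48 ± 0.11 on 1 of 7 probe sets; the other 6 had -0.04 to 0.53, and the list median was -0.01.

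Among calls without overlap and above the dim range, the highest change was that of a hormone gene. Cga, the common alpha subunit of glycoprotein hormones, read 8.10, 3.19, 15.4 and 12.1 in controls and 126, 99.8, 66.9 and 58.1 in knockouts (log2 change 1.99 ± 0.25, limma adjusted p = 0.00273). Controls were at background and knockouts reached only the lower range of the array, without overlap. The beta subunits Lhb and Fshb were dim, and Tshb had 0.47 ± 0.28 and did not pass. Hsd3b1, which carries out an early step of steroid synthesis, read 2106, 1095, 1316 and 1034 in controls and 5800.3, 3305, 4305 and 3012 in knockouts (1.57 ± 0.30, limma adjusted p = 0.0211). It was high in all ovaries and highest in knockouts 1 and 3. The other 8 measured steroid synthesis genes did not pass, including Star (0.25 ± 0.20), Cyp17a1 (0.19 ± 0.33) and Cyp11a1 (-0.59 ± 0.23). Hsd3b1 passed in 4 of the 8 fits that left out 1 of the E16.5 arrays.

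Among 6 measured genes of the adrenal cortex 2 rose, and 0 fell. Mc2r, the receptor for the pituitary hormone ACTH, read 51.2, 29.7, 39.2 and 57.8 in controls and 144, 101, 203 and 159.5 in knockouts (log2 change 1.46 ± 0.23, limma adjusted p = 0.00703). Hao2, a peroxisomal oxidase, read 228, 217, 155 and 134 in controls and 733, 542, 573 and 355 in knockouts (1.49 ± 0.27, limma adjusted p = 0.0147). Every knockout exceeded every control for both genes. Mrap, the accessory protein of that receptor, had 0.90 ± 0.25 (limma adjusted p = 0.112), and the adrenal enzymes Cyp11b1, Cyp11b2 and Cyp21a1 were dim. Summed signal of the 6 genes was 326 to 433 in controls and 791 to 1139 in knockouts. Neither gene passed without knockout replicates 1 and 4, where their changes were 1.43 and 1.55. The part of adrenal cells in these changes was not tested.

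Genes of detoxification and fatty acid handling also changed. Ephx1, an epoxide hydrolase of xenobiotic metabolism, had the second smallest p among all probe sets. It read 109, 75.5, 77.7 and 83.9 in controls and 389, 370.0, 284 and 310.3 in knockouts (log2 change 1.79 ± 0.19, limma adjusted p = 0.000382), and 1.74 without knockout replicates 1 and 4 (limma adjusted p = 0.0267). Of 23 measured detoxification genes, Gclc, which starts glutathione synthesis, also passed as higher (0.49 ± 0.10), although its brighter probe set had -0.24 ± 0.18. Cyp1b1 passed as lower on 1 of 3 probe sets (-0.48 ± 0.10), while another had 0.48. The fatty acid binding genes Fabp3 and Fabp4 were the 2 calls among 23 fat cell genes. Fabp3 read 305, 279, 267 and 398 in controls and 1297, 799, 661 and 1058 in knockouts (1.53 ± 0.29, limma adjusted p = 0.0181). On the passing probe set of Fabp4, knockout replicate 1 read 306 against 104 to 114 in the other knockouts. Mgarp, a mitochondrial protein, rose from between 29.0 and 87.5 in controls to between 105 and 271 in knockouts (1.58 ± 0.29), and C1galt1, a glycosyltransferase of O-glycans, from between 97.2 and 237 in controls to between 338 and 674 in knockouts (1.60 ± 0.26). The call of C1galt1 was on 1 of its 3 probe sets; the others, including the brightest, had -0.18 ± 0.12 and -0.08 ± 0.19, so they did not share its sign. Fabp4 had 1.56 ± 0.36 on its brightest probe set, which did not pass, and -0.60 ± 0.31 on a dim one. Cyp1b1, Gclc, Fabp3, Mgarp and Fabp4 passed in 1, 2, 3, 3 and 4 of the 8 fits that left out 1 E16.5 array. Ephx1 and C1galt1 passed in all 8.

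Other genes of the leading higher group had separate roles. Ccn1, a matrix-associated signalling protein, read 83.9, 106, 62.2 and 53.9 in controls and 591, 262, 163 and 193 in knockouts (log2 change 1.64 ± 0.34, limma adjusted p = 0.0339). Ecrg4, which encodes a secreted peptide precursor, was higher without overlap on 3 of 3 probe sets. On 2 it passed (1.69 ± 0.34 and 1.52 ± 0.27), and the remaining one had 1.12 (limma adjusted p = 0.0905). The noncoding RNA Pvt1 rose from between 32.8 and 55.8 in controls to between 115 and 212 in knockouts (1.56 ± 0.27), and the defensin Defb7 from between 14.9 and 76.3 in controls to between 95.6 and 173 in knockouts (1.63 ± 0.34). Pvt1 passed in 7 of the 8 fits that left out 1 of the E16.5 arrays, whereas Ccn1 and Defb7 passed in 2 and 1. The 2 Ecrg4 calls held in 2 and 6 of them, and with the Gapdh covariate their changes were 1.04 and 1.44. The clone 2210407C18Rik, left out by the naming rule, had the second highest change among calls without overlap (1.92 ± 0.31, limma adjusted p = 0.0079), from between 14.4 and 36.6 in controls to between 108 and 164 in knockouts.

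Genes of the interstitial matrix, collagen and basement membrane lists rose where they passed, apart from Col25a1 and Frem1. Outside those lists, Itih5 and Sulf2 passed as lower. Among 37 measured interstitial matrix genes 4 were higher and 0 lower: Efemp1, Tnxb, Ecm1 and Dpt. Efemp1, a fibulin, read 148, 229, 116 and 151 in controls and 846, 393, 414 and 351 in knockouts (log2 change 1.49 ± 0.29, limma adjusted p = 0.0212). Tenascin Tnxb rose from between 116 and 163 in controls to between 235 and 345 in knockouts (0.94 ± 0.17) and Ecm1 from between 283 and 505 in controls to between 605 and 1056 in knockouts (0.92 ± 0.19). Knockout replicate 1 was the highest for Efemp1 but not for Ecm1 or Tnxb. Dermatopontin, Dpt, was the 1 call whose groups overlapped, with 92.2, 228, 72.0 and 89.3 in controls and 1915, 574, 551 and 189 in knockouts (2.27 ± 0.49, limma adjusted p = 0.0422). Of 37 measured collagens, Col9a1, a cartilage collagen (1.58 ± 0.27), and Col14a1, which binds collagen fibrils (1.52 ± 0.33), were higher. Col9a1 read 10.7, 22.7, 34.6 and 23.7 in controls and 121, 131, 66.3 and 84.7 in knockouts, and the fibrillar Col1a1 and Col3a1 had 0.21 ± 0.21 and -0.00 ± 0.12. Efemp1, Tnxb, Ecm1, Dpt, Col9a1 and Col14a1 passed in 4, 5, 1, 3, 7 and 1 of the 8 fits that left out 1 of the E16.5 arrays. The other matrix genes, such as elastin Eln (1.08 ± 0.33) and periostin Postn (1.16 ± 0.36), did not pass; the list median was 0.19, and 0.06 with the Gapdh covariate.

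Of 14 measured markers of the ovarian surface epithelium 2 rose and 0 fell. Krt19, a keratin of simple epithelia, read 1370.2, 1094, 684 and 975 in controls and 2610.1, 2241, 2286 and 2391 in knockouts (log2 change 1.24 ± 0.24, limma adjusted p = 0.0243). Gpm6a, a membrane glycoprotein, read 483, 576, 261 and 353 in controls and 1458, 1188, 1253 and 707 in knockouts (1.44 ± 0.31, limma adjusted p = 0.0436). They passed in 3 and 1 of the 8 fits that left out 1 of the E16.5 arrays. Both were separate between groups, and Gpm6a was lowest among knockouts in replicate 4. Msln and Ly6d had larger estimates that did not pass, 2.09 ± 0.64 and 1.57 ± 0.37, while Krt8 and Krt18 had -0.16 ± 0.12 and -0.03 ± 0.11. The summed signal of the 14 genes was 20252 to 21532 in controls and 22714 to 27609 in knockouts.

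Blood-derived and inflammatory genes rose in small numbers. Hdc, which makes histamine and marks mast cells, read 349, 242, 387 and 377 in controls and 1089.5, 1384, 1461 and 956 in knockouts (log2 change 1.80 ± 0.35, limma adjusted p = 0.0215), and was the 1 call among 11 mast cell genes. The mast cell proteases Tpsb2, Cma1 and Cpa3 had 1.49 ± 0.36, 0.76 ± 0.46 and 0.55 ± 0.62, and the IgE receptor genes Fcer1a and Ms4a2 were dim. Summed signal of the list was 1549 to 3109 in controls and 3346 to 5389 in knockouts, and the part of mast cell number in the change of Hdc was not tested. The Hdc call held in 2 of the 8 fits that left out 1 of the E16.5 arrays, and with the Gapdh covariate (2.50, limma adjusted p = 0.0377). Among 19 macrophage and leukocyte genes 0 passed in limma (7 at an unadjusted p under 0.05), although all 17 that were not dim had positive changes. Over all probe sets that were not dim 54.0% were positive. The 17 were measured on the same ovaries, so they are not separate support. The smallest p in the list belonged to the complement genes C1qb (0.82 ± 0.20) and C1qc (0.98 ± 0.26), and knockout replicate 1 was highest for both. The summed signal of this list was 6354 to 7327 in controls and 6087 to 13573 in knockouts.

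B2m, which encodes beta-2 microglobulin of the class I complex, rose on both of its probe sets. The one with the smaller p read 3476, 3336, 3083 and 3411 in controls and 5424, 5387, 5181 and 4646 in knockouts (log2 change 0.63 ± 0.11, limma adjusted p = 0.00982), and the other had 0.50 ± 0.11. They passed in 7 and 0 of the 8 fits that left out 1 of the E16.5 arrays. It was the 1 call among 10 class I genes, and H2-K1 and H2-D1 had -0.00 ± 0.22 and 0.67 ± 0.25. Of 17 interferon response genes, Bst2, which tethers viruses to membranes (1.37 ± 0.27), and the GTPase Gbp2 (0.76 ± 0.14) were higher. Bst2 read 1342, 687, 617 and 1056 in knockouts 1 to 4, highest in replicates 1 and 4, against 282 to 392 in controls, and its change was 0.94 without those arrays. Bst2 and Gbp2 passed in 2 and 5 of the 8 fits that left out 1 array. Regulators of coagulation also rose: the tissue factor F3 (1.15 ± 0.23) and thrombomodulin Thbd (1.12 ± 0.15), with Masp1, a protease of the complement system, completing the 3 calls among 14 genes. Thbd read 522, 458, 515 and 565 in controls and 1374, 1037, 1193 and 975 in knockouts (limma adjusted p = 0.00327) and passed without knockout replicates 1 and 4 (1.09, limma adjusted p = 0.0375).

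In the pre-granulosa list 1 of 24 genes passed. Fst, which is needed for ovarian development, read 1862, 2043, 2173 and 2189.5 in controls and 1264, 1105, 1229.5 and 1238 in knockouts (log2 change -0.76 ± 0.13, limma adjusted p = 0.0124), while its brighter probe set had -0.25 ± 0.19. Foxl2 had -0.83 ± 0.20 (limma adjusted p = 0.0684), Wnt4 -0.44 ± 0.19 and the WNT effector Lef1 -0.63 ± 0.18. None of these 3 passed. Of the 22 genes that were not dim, 7 had a positive change, against 54.0% of all such probe sets. Their median was -0.24 (-0.19 without knockout replicates 1 and 4, and -0.11 with the Gapdh covariate). The summed signal was 64394 to 67284 in controls and 52755 to 59908 in knockouts, so all knockouts lay below all controls. Kitl, the ligand of the Kit receptor on germ cells, read 7104, 7357, 6881 and 7163 across the controls and 4004, 5115, 5372 and 3045 across the knockouts at its most changed probe set. It missed the threshold there (-0.73 ± 0.17, limma adjusted p = 0.0519).

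The 4 germ cell lists gave no calls. Of 23 meiosis, 13 general germ cell, 15 early germ cell and 17 oocyte genes, 0 passed in limma, while 1, 2, 1 and 1 had an unadjusted p under 0.05, and the list medians were 0.12, 0.08, 0.41 and 0.09. Of the genes that were not dim, 20 of 23, 8 of 13, 11 of 11 and 7 of 10 had a positive change. Over all probe sets that were not dim this share was 54.0%. Without knockout replicates 1 and 4 the counts were 12, 11, 10 and 10. The synaptonemal complex gene Sycp3 had -0.00 ± 0.12, Stra8, required for entry into meiosis, 0.01 ± 0.62, and the germ cell helicase Ddx4 0.12 ± 0.13. Outside these lists, and picked out after its value was seen, the meiotic recombination gene Rec114 passed as lower on 1 probe set (-1.33 ± 0.29, limma adjusted p = 0.0447) and had 0.21 ± 0.24 on the other. That Rec114 call held in 1 of the 8 fits that left out 1 of the E16.5 arrays, and its change was -0.65 with the Gapdh covariate. Summed signals of the meiosis genes were 42337 to 57093 in controls and 42202 to 59631 in knockouts. The Sertoli, skeletal muscle, red cell, cholesterol, Notch, IGF, retinoic acid, immediate early, chemokine, glycolysis, HOX and hormone receptor lists also held 0 calls in limma, with 1 to 10 genes each at an unadjusted p under 0.05. These lists were not alike. Skeletal muscle had 1 of 12 and Notch 1 of 16, whereas IGF had 7 of 14, glycolysis 8 of 21 and immediate early 10 of 21. Over all probe sets 4581 of 34945 had such a p, while a listed gene counted on any of its probe sets. The progesterone receptor Pgr came nearest in the receptor list, with -0.79 ± 0.20 (limma adjusted p = 0.0763) and separate groups. A p above the threshold with 4 arrays per group does not show that these genes were equal.

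**Figure D4:**
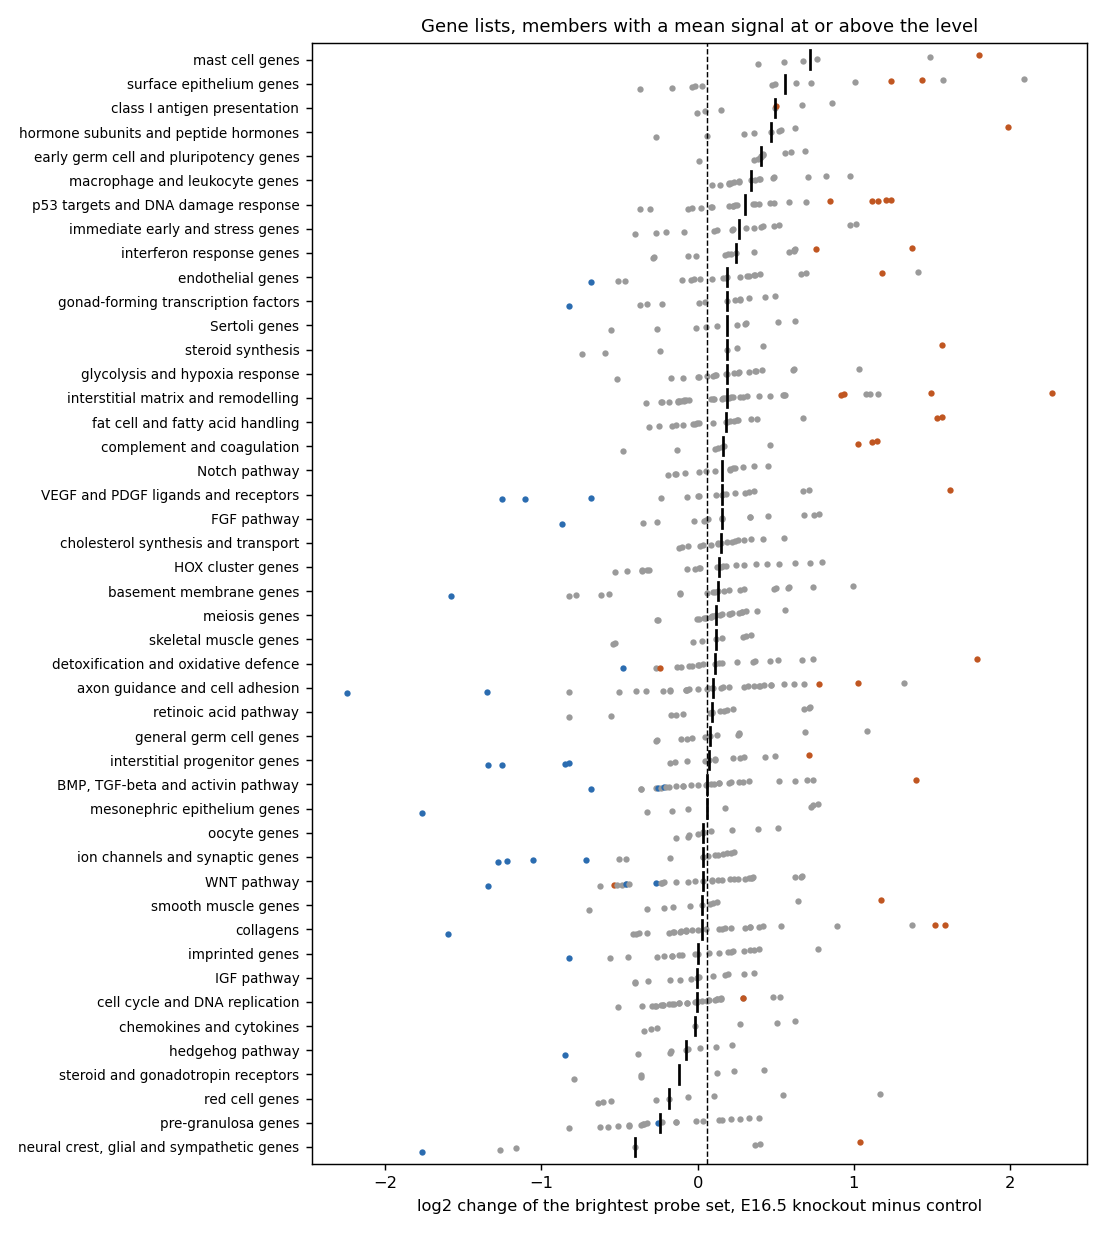
Log2 change at E16.5 of the members of the gene lists that were not dim, 1 point per gene at its brightest probe set, with the list median as a tick and the median of all genes (0.06) as a dashed line. Coloured points are genes with any passing probe set, so that Sfrp1 and Gclc, which passed on a dimmer probe set, are coloured as higher at negative values.

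Other probe sets of the called genes mostly changed in the same direction. Of the 176 called genes 58 had 1 probe set and 118 had more, and on 87 of the 118 all probe sets had the same sign. For lower genes, 70 of the 79 other probe sets that were not dim also had a negative change (88.6%, against 46.0% of all such probe sets). On 33 of the 79 the knockouts lay entirely below the controls (41.8%, against 4.95%). For higher genes, 74 of 91 had a positive change (81.3%, against 54.0%), and on 33 of them the knockouts lay entirely above (36.3%, against 5.10%). Dim probe sets shared the sign in 34 of 42 cases for higher genes and in 11 of 17 for lower ones. Probe sets of a gene share the same RNA samples and can share sequence, so this agreement bears on the probes and not on the animals.

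At least 2 probe sets passed for 18 of 9010 genes that have more than 1 (0.2%). On 3 or more probe sets Sox11, Nr2f2, Pdgfra and Wnt5a passed. The 8 lower ones were Sox11, Nr2f2, Pdgfra, Wnt5a, Ajap1, Angpt1, Grk5 and Kcnd2. The 10 higher ones were B2m, Ccng1, Cdkn1a, Ecrg4, Enpp3, Htra1, Kcnh1, Masp1, Prkar2b and Vegfd. Grk5, a kinase that switches off G protein-coupled receptors, fell by 0.79 ± 0.13 and 0.85 ± 0.18. The latter Grk5 call was lost whichever E16.5 array was left out. Htra1, a secreted serine protease, rose by 1.26 ± 0.19 and 1.02 ± 0.19, from 832, 813, 953 and 698 to 2822, 1418, 1575 and 2460.1 on the former. Its knockouts 1 and 4 were the highest, and all 4 were above the controls. Prkar2b, a regulatory subunit of protein kinase A, rose on 2 of 3 probe sets (0.74 ± 0.11 and 0.73 ± 0.13) and had 0.19 ± 0.16 on the other, the brightest. The potassium channel Kcnh1 rose by 1.12 ± 0.21 and 0.87 ± 0.19, and the latter call was lost whichever E16.5 array was left out. The ectoenzyme Enpp3 rose by 1.32 ± 0.23 and 1.12 ± 0.21, with 3 other Enpp3 probe sets not passing.

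**Figure D5:**
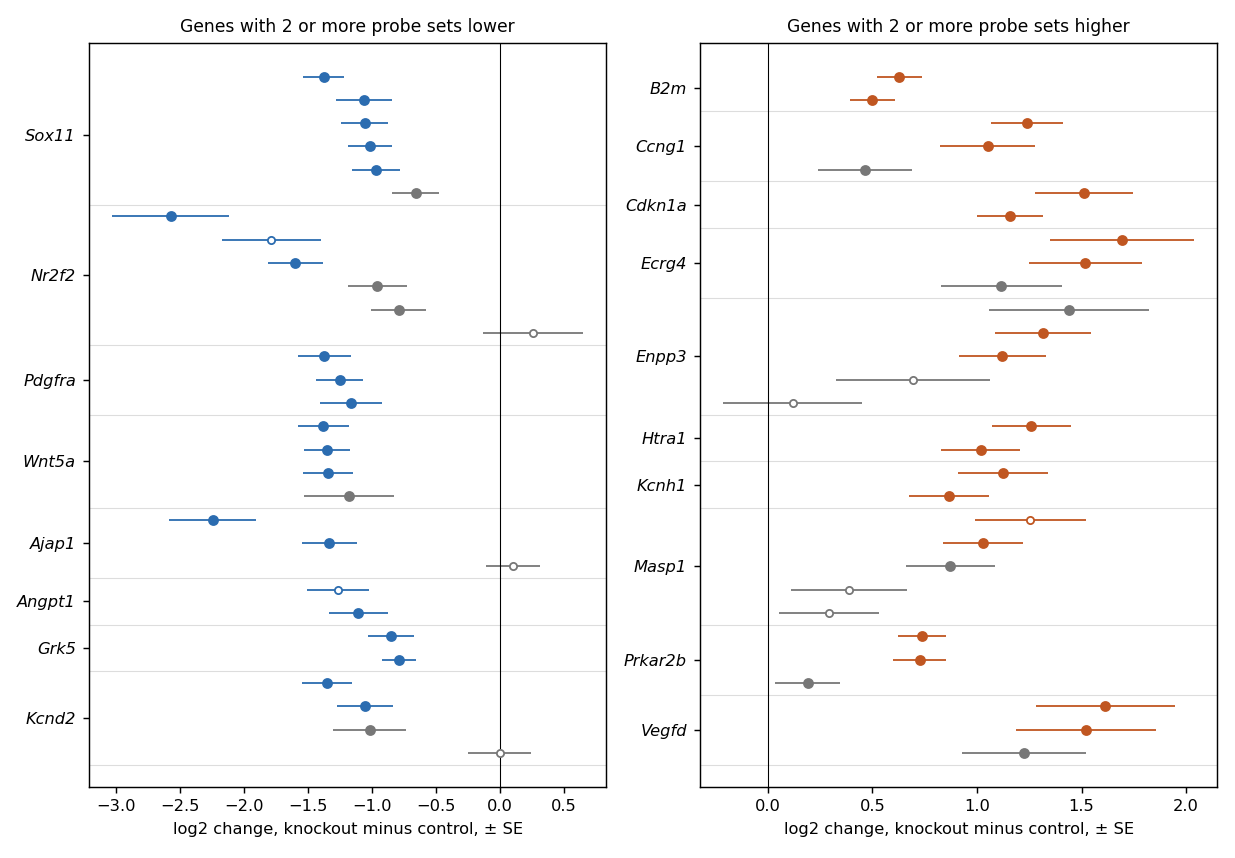
Log2 change at E16.5 with SE bars for every probe set of the genes with 2 or more passing probe sets, lower genes on the left and higher genes on the right. Coloured symbols passed, grey ones did not, and open symbols had a mean signal under 70.6; for Sox11, Wnt5a, Pdgfra, Angpt1, Cdkn1a, Htra1 and Vegfd all probe sets lie on the same side of zero.

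For 2 called genes another probe set that was not dim changed the opposite way at an unadjusted p under 0.05. Opposite signs without that p were more common, since 87 of the 118 genes with several probe sets had 1 sign throughout. Sfrp1, a secreted WNT inhibitor, passed as higher on 1 probe set, which read 146, 149.5, 113 and 70.1 in controls and 392, 179.8, 276 and 303 in knockouts (log2 change 1.16 ± 0.25, limma adjusted p = 0.0422). Its brightest probe set read 2002, 2344, 2135 and 2293 in controls and 1410.3, 2146, 1560.3 and 1093 in knockouts (-0.53 ± 0.18), and the other 3 had -0.09 to -0.13. The call on the dimmer probe set is therefore not a direction for Sfrp1. Dock9 passed as lower on 1 probe set (-0.43 ± 0.09) and had 0.31 ± 0.13 on another, where knockout replicate 3 read 2774 against 1811 to 1856 in the other knockouts.

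Among knockouts, replicate 3 was often closest to controls for genes that fell. It was the highest knockout on 37 of the 73 lower calls other than those of Nr2f2 (50.7%, against 21.5% of all probe sets that were not dim). Replicate 2 was the lowest knockout on 56 of the 124 higher calls (45.2%, against 28.0%). On 4 of the 5 Nr2f2 probe sets that were lower, replicate 3 also held the highest residual signal. Replicates 2 and 3 were also the knockouts nearest to controls in the Gapdh difference (1.63 and 1.58, against 0.94 and 1.32 in replicates 1 and 4). Whether the extent of deletion differed between animals was not tested, nor was the part of array quality in these ranks.

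The E14.5 comparison used other arrays but shared the fitted spread. On bioB those arrays read 1213 to 1487, against 3806 to 16405 at E16.5. Their Gapdh difference was -0.42 to -0.06, against 0.94 to 1.83. The part of these differences in the comparison of stages was not tested. Of the 124 higher calls 106 had a positive change at E14.5, with a median of 0.41 against 1.14 at E16.5; 53.8% of all probe sets were positive at E14.5. Of the 76 lower calls 65 were negative at E14.5, with a median of -0.22 against -0.97. Selection on the E16.5 change favours larger values there, so these medians do not measure a difference between stages. At E14.5 itself 13 probe sets passed (0.0372%), and 1 passed at both stages, a B2m probe set. Hdc, Krt19, Gpm6a and Amph had E14.5 changes of 1.65 ± 0.40, 1.44 ± 0.28, 1.49 ± 0.36 and -1.29 ± 0.30, against 1.80 ± 0.35, 1.24 ± 0.24, 1.44 ± 0.31 and -1.28 ± 0.26 at E16.5. Hpca, Pdgfra and Sox11 had 0.15 ± 0.40, -0.30 ± 0.22 and -0.27 ± 0.18. When the effect at E16.5 was tested against that at E14.5, 0 probe sets passed in limma (smallest adjusted p = 0.0695), while 2760 had an unadjusted p under 0.05. Without E14.5 knockout replicate 3 that count was 24, and without E16.5 control replicate 1 or 2 it was 1 or 2, so which genes differ between stages is not settled by these arrays.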

How the data were processed

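Total RNA from whole ovaries (PicoPure) was labelled with the 3' IVT Express kit, per the labels' protocols. The authors deposited MAS5 intensities on a linear scale; per the submitters' processing notes the software was Affymetrix Expression Console, version not given in the sources used here. Each array had a trimmed mean, without 2% at each end, of 500. Of 45037 noncontrol probe sets, 34945 had 1 symbol in GEO's platform annotation and were tested; 932 had several symbols and 9160 had none listed. By gene ID, 34741 were found in RefSeq GRCm38.p6, which changed 0 symbols. Values were taken as log2(intensity + 16) without a filter. One model over 14 arrays and 4 groups was fitted in limma 3.58.1 (lmFit, eBayes with trend) under R 4.3.3, with Benjamini-Hochberg adjustment and a threshold of 0.05, after tests on simulated data. Named genes were Nr2f2 and Wt1, the 15 highest and 15 lowest changes among passing probe sets without overlap and with a higher group mean at or above the 40th percentile, leaving out clone and predicted-model names, genes with several passing probe sets, and called list members. The genes and lists were chosen with earlier results of these data known. Alternatives covered pseudocount, scaling, filters, trend, replicate block and left-out arrays. Figures used matplotlib 3.10.9.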

Additional observations from a re-analysis of the deposited data

Results flagged for a closer look

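In 11 of the 210 groups of 4 arrays examined for the named probe sets, 1 array lay far from the other 3; chance gives about 1 in 20. For Defb7, control replicate 2 read 76.3 against 14.9 to 16.8, and knockout replicate 2 read 173 against 95.6 to 98.5. Knockout replicate 1 was high for Syt1 (73.4 against 38.4 to 40.7), Fabp4 (306 against 104 to 114) and F3 (220 against 136 to 148). Knockout replicate 3 was high for Lrfn5 (113 against 38.5 to 43.0), Pdgfra (1669 against 1127 to 1194) and Gbp2 (607 against 479 to 492). Control replicate 4 was low for Sox11 (1992 against 2290 to 2348), Cdkn1a (391 against 452 to 464) and Gclc (411 against 451 to 457). Among probe sets with no gene symbol listed, 13 passed in a limma fit of all 45037 noncontrol probe sets, 7 higher and 6 lower.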

How the results depend on the processing

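Against 200 calls, the count was 257 with a pseudocount of 64, 184 with 1, 264 after quantile normalization, 203 after median centring, 246 and 162 above the 40th and 60th percentiles of signal, 137 with the brightest probe set per gene and 202 from the E16.5 arrays alone. It was 99 without the eBayes trend, 46 at a threshold of 0.01, 7 with the Gapdh covariate and 13 without knockout replicates 1 and 4; why it fell under the covariate and the trend was not tested, and the last setting has fewer arrays. Leaving out 1 array in turn gave 56 to 519 calls. Calls tested in each of these fits kept their sign. Where arrays were left out, this was fixed in advance for the calls without overlap. The share of higher calls, 62.0%, was 56.8% after quantile normalization and 57.1% after centring. With the replicate number as a block 181 passed, and deviations of same-numbered arrays correlated at 0.15, -0.016, 0.054 and 0.38, so the numbers were not taken to pair the ovaries. For the stage difference 0 probe sets passed in limma; 1 passed with a pseudocount of 1, quantile normalization, centring or the brightest probe set, 4 without the trend, and 0 to 24 with 1 array left out. Directions turned only for probe sets that had not passed: a Kcnd2 probe set (-0.16 with a pseudocount of 1, -0.0074 after quantile normalization, -0.036 after centring, -0.23 to 0.15 leaving out 1 array), a dim Dock9 probe set (0.018) and a Sfrp1 probe set (0.12) with the Gapdh covariate, an Ajap1 probe set (-0.0021) and a brighter Dock9 probe set (0.045) without knockout replicates 1 and 4, and an Enpp3 probe set (-0.18 to 0.37) leaving out 1 array. The cause was not tested. Dim probe sets and 4 arrays per group limit what can be detected.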

Other observations

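Several called genes outside the fixed lists were chosen for mention after their values were seen. Among lower genes were Itih5, which binds hyaluronan (log2 change -1.14 ± 0.22, limma adjusted p = 0.0202), the iron exporter Slc40a1 (-0.90 ± 0.18, 0.0244) and Hsd11b2, which inactivates glucocorticoids (-0.94 ± 0.19, 0.0254). Dact1, a modulator of WNT signalling, fell from between 950.2 and 1136 in controls to between 414 and 714 in knockouts (-0.86 ± 0.15, limma adjusted p = 0.0136). Sulf2, which trims heparan sulfate, the transcription factor Dach1 and the adhesion receptor Adgrl3 had -0.72 ± 0.14, -1.03 ± 0.22 and -0.86 ± 0.16. Another Sulf2 probe set had 0.02. Dact1, Itih5, Slc40a1 and Hsd11b2 passed in 6, 4, 3 and 3 of the 8 fits that left out 1 E16.5 array. Sulf2, Adgrl3 and Dach1 passed in 3, 3 and 1 of them. Lgi1, a secreted synaptic protein, fell by 1.19 ± 0.19 and passed whichever E16.5 array was left out. Among higher genes that also did so were the calpain Capn6 (1.29 ± 0.20), the synaptic organizer Cbln1 (1.28 ± 0.21) and Tcn2, which carries vitamin B12 (0.84 ± 0.13).

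Other lists held few calls. Of 22 imprinted genes the neuronal gene Nnat fell (-0.82 ± 0.18). Desmin, Des, of muscle cells rose (1.17 ± 0.26), as did S100b, a glial calcium-binding protein (1.04 ± 0.22), in a neural crest list of 13 genes where Ret fell. Des and S100b passed in 2 and 1 of the 8 fits that left out 1 of the E16.5 arrays, and the dim second Des probe set had a change near zero. Of 40 axon guidance and adhesion genes 2 passed as higher and 2 as lower. The guidance receptors Epha4 and Unc5b rose by 1.03 ± 0.20 and 0.78 ± 0.15, each kept in 3 of those fits, and Ajap1 and Lrfn5 fell.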
